A study of Mus musculus with 2 samples.

Results

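MicroRNA (miRNA) genes known from neural progenitors and differentiating neurons, namely Mir92b, Mir137, Mir153, Mir128-1, Mir128-2, Mir7-1, Mir7-2, Mir7b, Mir129-1 and Mir129-2, were followed in the mouse neural tube at embryonic day 11.5. They were found by Ensembl identifier, matched to GENCODE mouse symbols, and all 10 of the 10 named genes were present among the 1973 miRNA genes measured. Small RNA of less than 30 nt was sequenced from healthy embryos of the B6NCrl strain, with no treatment or engineered allele named in the labels. The study held 1 group with 2 biological replicates, each a pool of male and female embryos (109 in replicate 1 and 88 in replicate 2). Levels are own-strand read counts per 1000000 own-strand counts on miRNA genes (CPM), and a mean is given ± SD over n = 2. A pool of whole neural tubes mixes progenitors, young neurons and other cells, so fewer cells of a type and less RNA per cell cannot be told apart.

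A miRNA is cut from a hairpin transcript as a short arm that guides an Argonaute protein to target mRNAs, which are then repressed. Pairing is set mainly by the seed, the bases from position 2 to 8 of the arm. During neurogenesis the neuroepithelium of the neural tube shifts from dividing progenitors to postmitotic neurons, and different miRNAs accompany these states. In mouse, miR-92b is known from cortical progenitors and restrains the Eomes (Tbr2) program of intermediate progenitors, and miR-137 targets the chromatin enzymes Ezh2 and Kdm1a in neural stem cells. The miR-153, miR-128, miR-7 and miR-129 families are known mainly from neurons.

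The arms best known to be active are printed to show which of these genes can share targets and which have the same product. Sequences are those of RefSeq on GRCm38.p6, which held a hairpin for all 10 genes, and the seed is in capitals.
miR-92b-3p: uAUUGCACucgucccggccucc
miR-137-3p: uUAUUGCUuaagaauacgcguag
miR-153-3p: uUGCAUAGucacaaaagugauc
miR-128-3p: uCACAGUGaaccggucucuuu
miR-7a-5p: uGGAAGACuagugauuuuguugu
miR-7b-5p: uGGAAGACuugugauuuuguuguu
miR-129-5p: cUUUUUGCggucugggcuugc
These 7 arms held 6 different seeds, since miR-7a-5p and miR-7b-5p have the same one. Over the 23 bases of miR-7a-5p, miR-7b-5p differs by A10U, counted from 1 at the 5′ end with the base of miR-7a-5p first, which lies outside the seed. Of the 7 arms, 6 begin with U, and their G+C content ran from 33.3% in miR-7b-5p to 63.6% in miR-92b-3p. Of the 7 arms, 3 are each made by a pair of genes: miR-128-3p by Mir128-1 and Mir128-2, miR-7a-5p by Mir7-1 and Mir7-2, and miR-129-5p by Mir129-1 and Mir129-2.

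How the copies can be told apart shows in their hairpins, printed with the longest run that a gene has in common with its copy in capitals.
Mir128-1: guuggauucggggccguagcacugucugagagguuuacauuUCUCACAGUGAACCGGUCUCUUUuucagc
Mir128-2: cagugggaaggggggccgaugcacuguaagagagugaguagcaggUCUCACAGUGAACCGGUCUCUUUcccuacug
Mir7-1: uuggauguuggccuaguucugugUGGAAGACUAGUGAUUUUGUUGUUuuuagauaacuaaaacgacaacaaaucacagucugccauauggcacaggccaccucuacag
Mir7-2: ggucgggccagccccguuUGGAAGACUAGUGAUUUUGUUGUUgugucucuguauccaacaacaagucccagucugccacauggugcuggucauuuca
Mir129-1: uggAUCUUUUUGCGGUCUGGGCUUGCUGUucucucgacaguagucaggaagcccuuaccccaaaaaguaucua
Mir129-2: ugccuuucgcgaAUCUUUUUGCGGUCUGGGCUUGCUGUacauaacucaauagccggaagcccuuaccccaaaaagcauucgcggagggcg
The common run was 23 nt for the Mir128 pair, 24 nt for the Mir7-1 and Mir7-2 pair and 26 nt for the Mir129 pair, and in each it covers the whole arm named above. A read of that arm alone therefore matches both hairpins. Reads mapped to several places stood in a row of their own and were counted for no gene, so the counts of these 6 genes leave out reads that lie inside the common run, and how many was not analysed here. What can be counted for a copy is its other arm or a read that runs past the common stretch. The other 4 genes had no run longer than 14 nt in common with any of the 1005 hairpins of the table. Exact copies elsewhere in the genome were not analysed here.

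**Figure D1:**
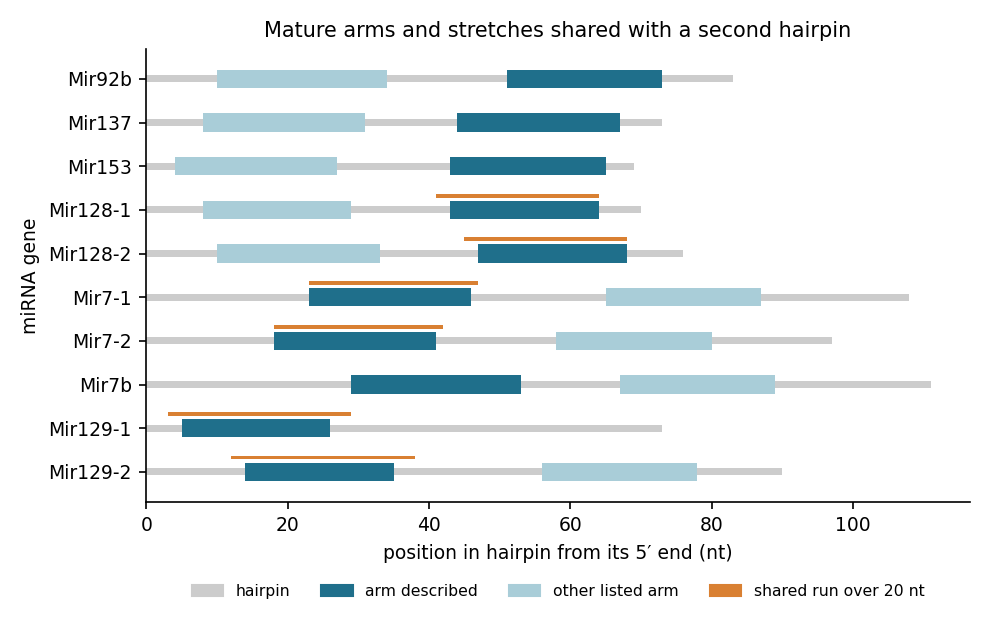
Hairpins of the 10 genes drawn to scale, with position from the 5′ end in nt on the horizontal axis. The dark box is the arm printed in the text and the pale box is the second listed arm. The orange line is the longest run found also in another hairpin, where it has more than 20 nt. Other common runs are not drawn. In 6 genes the orange line covers the dark box, and in Mir92b, Mir137, Mir153 and Mir7b there is none.

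The library totals were 3708662 own-strand miRNA counts in replicate 1 and 4055883 in replicate 2. Reads mapped to several places came to 2153217 and 2088167, which is 64.5 times and 66.7 times the counts of the 10 genes together. These are all such reads of a library, whatever their origin, and the part that came from the 10 genes was not analysed here. A count of 0 allows up to 3 counts, or 0.809 CPM and 0.740 CPM. Wilson and exact intervals in the text are at 95% and cover counting error only. The sum of the neural markers Mir9-2, Mir9-3, Mir124a-1, Mir124a-2 and Mir124a-3, whose arms also come from several genes, was 218 CPM and 215 CPM. None of the 5 was at 0, and the sixth, Mir9-1, had no row used here. The 3 blood markers summed to 786 CPM and 559 CPM, and the 5 measured of 6 muscle markers to 1398 CPM and 793 CPM, with Mir133a-1 and Mir133a-2 at 0 in both libraries. Reads that match both copies of a gene are counted for neither, so a 0 for such copies is not an absence of the miRNA. The endothelial marker Mir126a stood at 24945 CPM and 22302 CPM, the 3 sensory markers summed to 21960 CPM and 24390.0 CPM, and the liver marker Mir122 was at 7.82 CPM and 7.89 CPM.

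Together the 10 genes held 33401 counts in replicate 1 and 31310 in replicate 2. Their share of miRNA counts was 0.901% in replicate 1, with a 95% Wilson interval of 0.891 to 0.910, against 0.772% in replicate 2, where the interval was 0.763 to 0.781. The 3 genes with an arm of their own and no paralog in the set, Mir92b, Mir137 and Mir153, held 92.0% and 92.9% of that sum, and the 7 genes of the miR-7, miR-128 and miR-129 families the rest. From Mir92b down to Mir129-1 the mean level spanned 1029-fold. The shares and the span are those of the reads counted, which leave out the common arm for 6 of the 10 genes. Each read comes from a fragment shorter than 30 nt, so counts were not divided by hairpin length, and how evenly different arms were captured was not measured.

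Mir92b, the progenitor gene of the set, had the most counts. It held 19469 counts (5249.6 CPM) in replicate 1 and 19096 counts (4708 CPM) in replicate 2, or 4979 ± 383 CPM, at rank 38 of 1973 genes by mean. Both libraries placed it well above every other gene of the set. It lies on chr3:89227116-89227198 on the minus strand, inside no other annotated gene, and 28 nt from Mtx1, which encodes a mitochondrial outer membrane protein.

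Mir137, known from neural stem cells, was next. It held 8043 counts (2169 CPM) and 7141 counts (1761 CPM), or 1965 ± 289 CPM, at rank 68. Its hairpin (chr3:118433857-118433929, plus strand) overlaps an exon of the noncoding transcript Gm26871. Mir153, whose product is known to target alpha-synuclein, held 3206 counts (864 CPM) and 2841 counts (700.5 CPM), or 782 ± 116 CPM, at rank 103. It lies in an intron of Ptprn2 (chr12:117250817-117250885, plus strand), which encodes a phosphatase-like protein of secretory granules in neurons and endocrine cells. The step from Mir92b to Mir137 and the step from Mir137 to Mir153 were each about as large, at 2.53-fold and 2.51-fold between means, and the ranges over the libraries did not overlap at either step.

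The 3 miR-7 genes summed to 439 ± 58.7 CPM, with 480.2 CPM in replicate 1 and 397 CPM in replicate 2. miR-7 is known from neurons and from endocrine cells, represses alpha-synuclein, and in mouse forebrain limits Pax6 protein. Mir7-1, in an intron of the RNA-binding protein gene Hnrnpk (chr13:58392779-58392886, minus strand), held 891 counts (240.2 CPM) and 736 counts (181 CPM). Mir7b (chr17:56242988-56243098, plus strand) has no host gene and held 539 counts (145 CPM) and 592 counts (146 CPM). Mir7-2 (chr7:78888277-78888373, plus strand), also without a host, held 351 counts (94.6 CPM) and 283 counts (69.8 CPM). Mir7-1 was the highest of the 3 in both libraries and Mir7-2 the lowest. Only Mir7b has a 5p arm of its own, so its count can include that arm, whereas those of Mir7-1 and Mir7-2 leave out reads within the common run. Whether the counting allowed a mismatch, which could move reads between miR-7a-5p and miR-7b-5p, is not given in the sources used here. Mir375, a marker of endocrine cells, where miR-7 is also abundant, was at 222 CPM and 226 CPM, and its part in the miR-7 values was not tested.

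The miR-128 genes, which in mouse damp the excitability of mature neurons, summed to 223 CPM in replicate 1 and 135 CPM in replicate 2. Mir128-1 lies in an intron of R3hdm1 (chr1:128202361-128202430, plus strand) and held 516 counts (139 CPM) and 326 counts (80.4 CPM). Mir128-2 lies in an intron of Arpp21, a gene for a phosphoprotein of neurons (chr9:112118636-112118711, minus strand), and held 312 counts (84.1 CPM) and 223 counts (55.0 CPM). For both genes replicate 1 was the higher library.

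The miR-129 genes, known in rat neurons for scaling down excitatory synapses, had the fewest counts of the set. Since reads of the miR-129-5p arm alone match both hairpins, this holds for the reads counted and not for the miRNA. Mir129-2 held 50 counts (13.5 CPM) and 59 counts (14.5 CPM). It lies in an intron of the noncoding Mir670hg (chr2:94241364-94241453, minus strand), the host of Mir670, which was at 37.1 CPM on average. Mir129-1 (chr6:29022619-29022691, plus strand), which overlaps an exon of the noncoding Gm3294, held 24 counts (6.47 CPM, 95% Wilson interval 4.35 to 9.63) and 13 counts (3.21 CPM, 1.87 to 5.48). All 4 values lay above the level that a count of 0 allows. In all, 7 of the 10 genes have a host on their own strand, 4 of the hosts protein-coding and 3 noncoding.

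**Figure D2:**
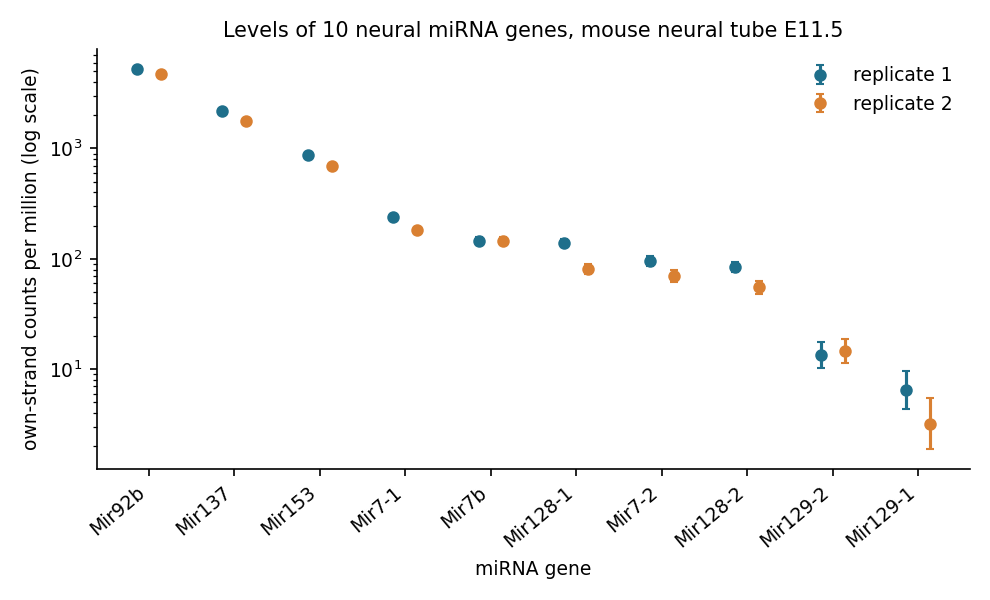
Level of each gene in replicate 1 and replicate 2, in own-strand CPM on a log axis, with 95% Wilson intervals that cover counting error only. Genes are ordered by mean, from 4979 CPM for Mir92b to 4.84 CPM for Mir129-1, and the order is the same in both libraries at every step.

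Of the 9 steps between neighbours in this order, all 9 had the same direction in both libraries. At 7 of them the ranges over the libraries did not overlap. The ranges overlapped between Mir128-1 and Mir7-2 and between Mir7-2 and Mir128-2, although within each library the first of the pair was the higher. The order is that of the reads counted, which leave out the common arm for 6 of the 10 genes. With 2 values a gene the smallest two-sided p that an exact permutation test of gene against gene allows is 0.333, so no order was tested. The largest of the 9 steps in mean level was the 4.96-fold one from Mir128-2 to Mir129-2. With 2 libraries a likeness of pattern cannot be measured, and only genes of like level can be named. Mir92b stood between Mir149 (5059 ± 519 CPM) and Mir140 (4821 ± 889 CPM), and Mir137 between Mir361 (2061 ± 300 CPM) and Mir16-1 (1941 ± 150 CPM). For all 10 genes the nearest genes outside the set lay within 4.89% of the mean on either side.

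Ratios of counts within a library do not depend on how the libraries are scaled. Mir137 exceeded Mir153 by 2.51-fold in both libraries (exact 95% intervals 2.41 to 2.61 and 2.41 to 2.63). Mir7-1 exceeded Mir7-2, the gene with the same 5p arm, by 2.54-fold (2.24 to 2.88) and 2.60-fold (2.26 to 2.99). Mir128-1 exceeded Mir128-2 by 1.65-fold (1.43 to 1.91) and 1.46-fold (1.23 to 1.74). For these 3 pairs the intervals of the libraries overlapped. Mir129-2 exceeded Mir129-1 by 2.08-fold (1.26 to 3.54) and 4.54-fold (2.46 to 9.02), which also overlap but rest on few counts. Between copies, both counts leave out reads within the common run. These ratios are therefore of the reads counted and not of the output of the genes. RefSeq lists a second arm for Mir129-2 and none for Mir129-1, but counts are per hairpin, so each gene can be counted from both sides of its hairpin.

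Other ratios moved between the libraries by more than counting error. Mir7-1 exceeded Mir7b by 1.65-fold (exact 95% interval 1.48 to 1.84) in replicate 1 and 1.24-fold (1.11 to 1.39) in replicate 2. The miR-7 genes exceeded the miR-128 genes by 2.15-fold (1.98 to 2.34) and 2.93-fold (2.66 to 3.24). Mir92b exceeded Mir137 by 2.42-fold (2.36 to 2.48) and 2.67-fold (2.60 to 2.75). In these 3 comparisons the intervals did not overlap, yet the gene or group that was higher was the same in both libraries. Here too the counts of Mir7-1, Mir7-2 and the miR-128 genes leave out reads within a common run. The spread between pools beyond counting error is not in these intervals, and copies made by PCR make them too narrow.

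**Figure D3:**
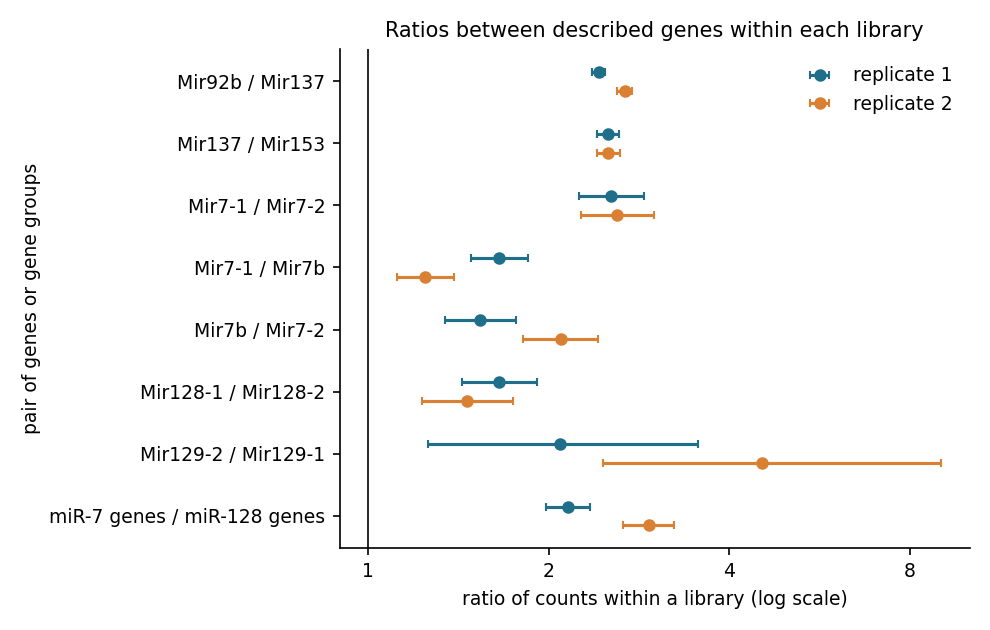
Ratio of counts between genes or gene groups within replicate 1 and within replicate 2, on a log axis, with exact 95% intervals for counting error. Mir137 over Mir153 and Mir7-1 over Mir7-2 coincide in the libraries, while Mir7-1 over Mir7b and the miR-7 genes over the miR-128 genes are apart.

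The libraries were then set against each other gene by gene, which compares these libraries and no condition. Each of the 444 genes with at least 10 summed counts was given a two-sided exact binomial p, adjusted by the Benjamini-Hochberg method over all of them. Of the 444, 53.2% differed, with 45.3% higher in replicate 1 and 7.88% higher in replicate 2. Of the 10 genes, 7 were higher in replicate 1, none was higher in replicate 2 and 3 did not pass. On the log2 scale their median ratio, replicate 1 over replicate 2, was 0.35, and that of all tested genes was 0.27. Among genes with at least 100 summed counts, 74.8% of all genes passed and 63.8% were higher in replicate 1, and of the 9 genes of the set at that depth 7 passed, each higher in replicate 1. Nothing particular to the set is read from this count.

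Relative to the median gene the 10 genes divide. In replicate 1 Mir128-1 was higher by 1.73-fold (adjusted exact binomial p = 1.95e-14), or 1.44-fold relative to the median. Mir128-2 was higher by 1.53-fold (adjusted exact binomial p = 3.53e-06), or 1.27-fold relative to the median. Both passed with each of 7 settings of scaling, strand and filter, of which a change of filter leaves the ratio as it is. With TMM and DESeq2 scaling Mir128-2 passed at larger values (adjusted exact binomial p = 0.0249 and 0.0175). Of the markers of other cells, Mir126a, the 3 blood markers and, among the muscle markers, Mir206 were also higher in replicate 1. The difference was 1.12-fold for Mir126a, 1.40-fold to 1.42-fold for Mir451a, Mir144 and Mir223, and 1.79-fold for Mir206. As log2 ratios these were 0.16, 0.48 to 0.51 and 0.84, against a median of 0.27 over all tested genes. Mir375 and Mir122 did not pass. Mir206 held 5038 of the 5186 muscle marker counts of replicate 1, and Mir133b did not pass (adjusted exact binomial p = 0.195). None of the 5 measured neural markers passed. All of them except Mir9-3 held at most 44 counts in a library, and Mir124a-3, 1.53-fold higher in replicate 1, did not pass at that depth. The 3 sensory markers were higher in replicate 2. The counts of Mir128-1 and Mir128-2 leave out reads within their common run, so their difference is not that of miR-128-3p. The part of these markers in it was not tested.

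Mir137 and Mir153 were each 1.23-fold higher in replicate 1 (adjusted exact binomial p = 7.46e-37 and 1.51e-15), which is 1.02-fold relative to the median gene. With scaling by TMM (trimmed mean of M values) they no longer passed (adjusted exact binomial p = 0.644 and 0.738). Mir7-1 was 1.32-fold higher (adjusted exact binomial p = 5.85e-08) and Mir7-2 1.36-fold higher (adjusted exact binomial p = 0.000339), and with TMM scaling neither passed (adjusted exact binomial p = 0.196 and 0.330).

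Mir92b was 1.11-fold higher in replicate 1 (adjusted exact binomial p = 7.36e-26). Its direction turned with TMM scaling, to a log2 ratio of -0.13 (adjusted exact binomial p = 2.58e-17). Mir7b did not pass, at a log2 ratio of -0.01, but with TMM scaling it was higher in replicate 2, at -0.29 (adjusted exact binomial p = 0.00241). Neither miR-129 gene passed: Mir129-1 was at a log2 ratio of 0.99 (95% interval for counting error 0.03 to 1.95) and Mir129-2 at -0.11 (-0.65 to 0.43). TMM scaling moved the median of all tested genes from 0.27 to -0.02 and gave 4 of the 10 genes past the test, against 40.1% of all genes. Of these 4, Mir128-1 and Mir128-2 were higher in replicate 1, as were 18.5% of all genes, and Mir92b and Mir7b in replicate 2, as were 21.6%.

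**Figure D4:**
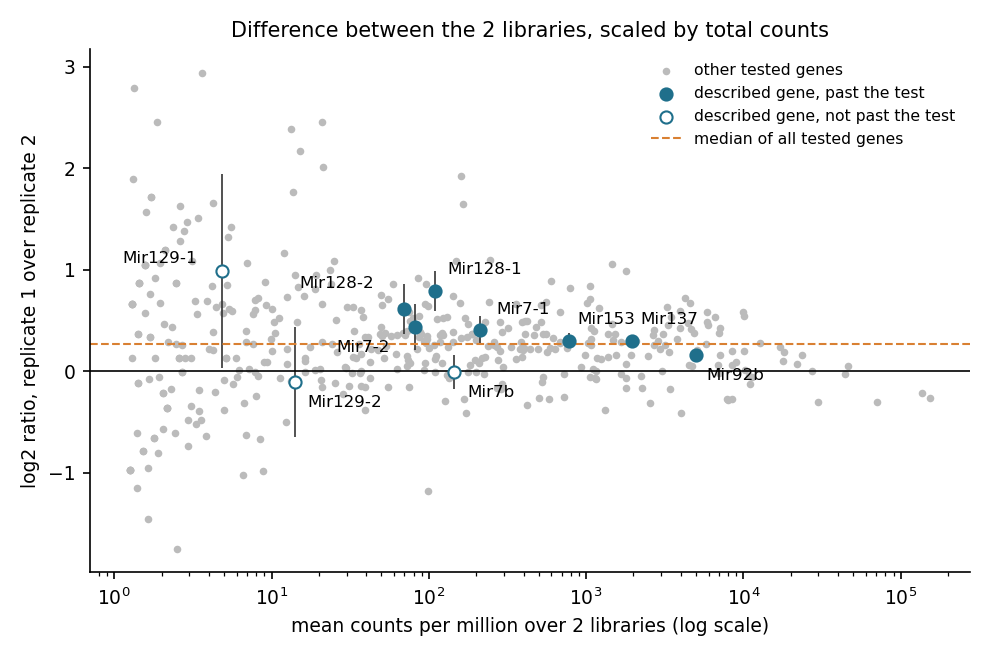
Log2 ratio of replicate 1 over replicate 2, scaled by total counts, against mean CPM on a log axis for the 444 tested genes. Bars on the 10 described genes are 95% intervals for counting error, filled points passed the exact binomial test, and the dashed line is the median of all tested genes at 0.27. Mir128-1 and Mir128-2 lie above the dashed line, Mir137 and Mir153 next to it, and Mir92b and Mir7b below it.

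The seed of an arm is the main part that sets which other genes can act on the same sites. Only arms with identical bases from position 2 to 8 were sought. Arms that match a seed at a shifted position were not looked for. In the RefSeq table the seeds of miR-137-3p and miR-153-3p occurred in 1 gene each, that of miR-128-3p in its 2 genes, that of miR-129-5p in its 2 genes and that of miR-7 in its 3 genes, so no gene outside the set carried them. Among the other arms, those of Mir128-1 and Mir128-2 have the same seed as each other, as do the 3p arms of Mir7-2 and Mir7b. Only miR-92b-3p has a seed also found elsewhere. It is that of the miR-25 family, which is best known from the proliferation-linked clusters around Mir17 and Mir106b, and it occurred in 7 genes.

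Of the counts of these 7 genes, Mir92b held 37.5% in replicate 1 (Wilson 95% interval 37.1 to 37.9) and 38.5% in replicate 2 (interval 38.1 to 39.0). Mir92-1, a gene of the Mir17 cluster, was next at 4455 ± 1038 CPM, followed by Mir363 at 2267 ± 184 CPM and Mir25 at 720.2 ± 88.9 CPM. Mir92b and Mir92-1 were close in replicate 1, at a ratio of 1.01 (exact 95% interval 0.992 to 1.03), and Mir92b was higher in replicate 2 by 1.27-fold (1.24 to 1.29). Over the libraries the ranges of these 2 genes overlapped. The arm miR-92a-3p is made by both Mir92-1 and Mir92-2, so their counts leave out reads mapped to several places and the share of Mir92b is an upper value to that extent. Counts are per hairpin and do not tell its arms apart. Compared with miR-92a-3p, whose base is given first, miR-92b-3p differs by U10C and by G21C, so they match over the seed.

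**Figure D5:**
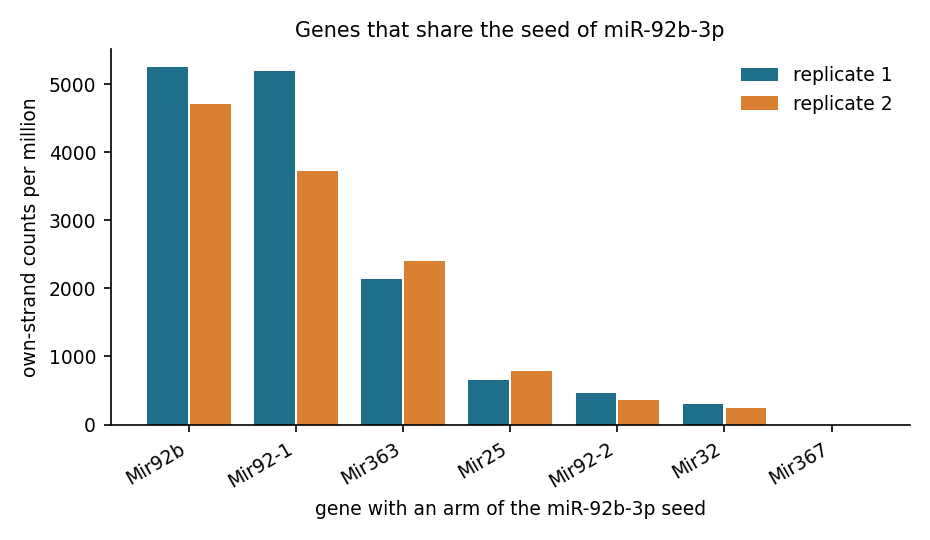
Level of the 7 genes with an arm that has the seed of miR-92b-3p, in CPM in replicate 1 and replicate 2, with bars that start at 0. Mir92b and Mir92-1 stand at about the same level in replicate 1, and Mir92b is the higher in replicate 2.

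Other neural miRNA genes, a list of 15 of which 14 had a row used here, put these levels in context. It held Mir9, Mir124a, Mir125, Mir132, Mir212, Mir138 and Mir218 genes, most of them copies whose arm is made by several genes. The list summed to 8160.4 CPM and 5803 CPM, and the 10 described genes exceeded it by 1.10-fold (exact 95% interval 1.09 to 1.12) and 1.33-fold (1.31 to 1.35). Of the 14, 5 were higher in replicate 1, where 45.3% of all tested genes were, none was higher in replicate 2, where 7.88% were, and 9 did not pass, with a median log2 ratio of 0.27, as over all tested genes. Mir125a, known from differentiating neural cells, led it at 4248 ± 1468 CPM, followed by Mir125b-1 at 1080.5 ± 168 CPM. Against the 5 measured Mir9 and Mir124a genes, the 10 described genes held 41.2 times and 35.8 times the counts. Those 5 ranged from 1.56 CPM for Mir124a-3 to 200.1 CPM for Mir9-3. Their arms come from several genes, so these are ratios of the reads counted and not of the miRNAs.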

How the data were processed

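The authors deposited raw read counts per miRNA gene for each library, aligned to mm10 and counted on annotation M4 of GENCODE, per the file headers. The aligner, counter and adapter trimming were not given in the sources used here. Of 3 count columns without names, the first equals the sum of the other 2 for every gene, and the second was used as own-strand counts. Rows that name no gene (56.5% of reads in replicate 1 and 47.0% in replicate 2) were left out of totals and tests. Symbols, coordinates and hosts came from GENCODE M21, also on GRCm38, matched by identifier without its version (1894 of 1973 genes), and sequences from RefSeq GRCm38.p6.

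CPM is the count divided by the library's own-strand total times 1000000. Each gene with at least 10 summed counts was given a two-sided exact binomial p between the libraries, adjusted after Benjamini and Hochberg with a threshold of 0.05, and log2 ratios carry a pseudocount of 0.5. It sets 2 libraries against counting noise, so its p-values measure only these libraries, and reads copied by PCR make them too small. Alternatives were TMM factors of edgeR 4.0.16, size factors of DESeq2 1.42.0, the total without the 10 most abundant genes, all reads as the total, counts of either strand, other filters and leaving out a replicate (R 4.3.3, Python 3.11.15, scipy 1.17.1). The number of per-sample columns not tied to a sample was 0.

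The genes described and the lists were chosen with earlier results of these data known. Genes outside the set were named by rule: next by mean CPM, the leading genes of a common seed, the leading genes of the list of other neural miRNAs, and hosts. Mir670 and Mtx1 were named after their values or positions were seen.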

Additional observations from a re-analysis of the deposited data

How the results depend on the processing

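The mean share of the 10 genes was 0.836% ± 0.0910 (SD, n = 2). It was 0.400% with all reads as the total and 1.95% of the total without the 10 most abundant genes, as the construction of each total sets. It ran from 0.772% to 0.901% when a replicate was left out. Either-strand counts (0.821%) and, chosen after seeing the data, only the 4 genes whose arms lie in 1 hairpin each (0.787%) stayed within the spread of the libraries. Of the 10 genes, 7 passed the test, against 53.2% of all genes tested, and 4 passed with TMM and 4 with DESeq2 size factors, where 40.1% and 41% of all genes did. The log2 ratio of Mir92b turned to -0.13 with TMM, -0.11 with DESeq2 size factors and -0.050 with the total without the 10 most abundant genes. The order of the 10 genes was the same in either-strand counts. A restriction to arms that map to 1 place in the genome was not run. No paired analysis was possible because the study has 1 group. Depth limits Mir129-1 and Mir129-2 most, with at most 59 counts in a library.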

Other observations

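On the strand opposite Mir129-2 the annotation places Mir129b, a gene with no row used here, and the reads opposite Mir129-2 came to 0 in both libraries. Opposite-strand reads were found for 1 of the 10 genes, Mir92b, with 2 reads in replicate 1 and 1 in replicate 2, below the 3 counts that a count of 0 allows. Within 50 kb of the 10 genes, the measured miRNA genes were Gm24155 near Mir137, with no count in either library, and Mir670 near Mir129-2.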
